A study of Mus musculus with 25 samples.

Results

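The genes described here are 34 mouse genes of fatty acid uptake and oxidation, measured in 25 hearts. They were taken by symbol from a table of read counts that holds 56941 genes; the rule uses no measured value, but the list was proposed with earlier results of these data known. Each of the 34 symbols matched 1 row of the table, and all 34 passed the low-count filter that left 17682 genes for testing. Total RNA from whole hearts had been depleted of ribosomal RNA and sequenced as stranded libraries.

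The hearts fall into 6 groups by genotype, wild type (WT) or MCT1KO, and by treatment, no pump, saline or Ang/PE. There were 4 WT and 3 MCT1KO hearts with no pump, 6 WT and 4 MCT1KO hearts with saline, and 3 WT and 5 MCT1KO hearts with Ang/PE. MCT1 is the lactate and pyruvate transporter encoded by Slc16a1, and Ang/PE stands for neurohormonal agonists used in the study to bring on cardiac hypertrophy. The labels name no strain, sex, age, infusion time, promoter or Cre line, and do not say whether the knockout is limited to a cell type. The hearts are labelled as separate samples.

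Heart muscle takes most of its energy from long-chain fatty acids. They are released from lipoproteins at the vessel wall, carried into the cardiomyocyte, bound to coenzyme A, moved into mitochondria as carnitine esters and shortened by the repeated steps of beta-oxidation. Malonyl-CoA blocks the carnitine step, and nuclear receptors of the PPAR family raise transcription of many of these genes. A fall of fatty acid oxidation genes with a shift towards glucose is a known feature of the hypertrophied heart.

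Library totals ran from 12216704 to 24880683 counts and followed the groups, with a mean of 13965289 in MCT1KO Ang/PE hearts and of 20501158 in WT no pump hearts. The gene named by the genotype label did not separate the labels. Slc16a1 stood at 203 ± 36.8 CPM (counts scaled to a common library total, mean ± SD, n = 4) in WT and 200 ± 29.6 (n = 3) in MCT1KO no pump hearts, at 199 ± 29.9 (n = 6) and 158 ± 26 (n = 4) with saline, and at 214 ± 10.6 (n = 3) and 190 ± 21.9 (n = 5) with Ang/PE. Its log2 fold changes of -0.02, -0.33 and -0.18 had adjusted p-values of 0.976, 0.219 and 0.807 (edgeR quasi-likelihood test). The unadjusted p-values of the same test were 0.9, 0.0192 and 0.241, so with saline Slc16a1 was lower before adjustment. The genotypes below are those of the labels. Gene counts cannot show a deletion that leaves the transcript in place or that affects a small share of the cells. Cardiomyocyte markers were high in all hearts, with a mean log2 CPM of 12.57 to 13.11 except for 11.76 in MCT1KO saline 4. Most saline hearts also carried transcripts of atrial muscle and fat. The atrial genes Myl4, Myl7 and Sln summed to 2.03 to 1136 CPM in WT saline and 1.5 to 3679 CPM in MCT1KO saline hearts, against at most 5.73 CPM in hearts of the other 4 groups. Adipocyte markers summed to 0.291 to 22.8 CPM in WT saline and 1 to 570 CPM in MCT1KO saline hearts, and to at most 0.768 CPM elsewhere. MCT1KO saline 4 had the most of both, while WT saline 1 and MCT1KO saline 3 had little of either. Although the RNA is described as from whole hearts, atrial transcripts were scarce in the other 4 groups. How much atrium each sample held was not tested. Xist, a transcript of female cells, was detected at a high level in 1 of 6 WT saline and 3 of 4 MCT1KO saline hearts, in 2 of 4 WT and 0 of 3 MCT1KO no pump hearts, and in 3 of 3 WT and 4 of 5 MCT1KO Ang/PE hearts. In whole-heart RNA, fewer cardiomyocytes and less RNA per cardiomyocyte cannot be told apart.

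Upstream sequences are shown for 6 members on which the results below turn, chosen after their values were seen: Cd36 and Acacb, which passed the test in a comparison, Acot1, Acot2 and Ucp3, which had the lowest ratios between groups, and Hadhb, whose upstream stretch is shared with Hadha. They come from the RefSeq promoter table of build GRCm38.p6, which holds 28 of the 34 members, and each is the longest stretch free of annotated exons in the 250 bases before the start site, read 5′ to 3′. Capitals mark the nuclear receptor half-site AGGTCA or its reverse complement; the other bases are in lower case.
Cd36 (chr5:17835897-17836146, minus strand): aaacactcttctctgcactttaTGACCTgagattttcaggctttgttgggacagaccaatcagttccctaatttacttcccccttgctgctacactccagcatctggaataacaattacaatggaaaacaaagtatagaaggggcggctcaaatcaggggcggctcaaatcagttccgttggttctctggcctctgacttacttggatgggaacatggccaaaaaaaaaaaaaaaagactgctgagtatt
Acacb (chr5:114165268-114165508, plus strand): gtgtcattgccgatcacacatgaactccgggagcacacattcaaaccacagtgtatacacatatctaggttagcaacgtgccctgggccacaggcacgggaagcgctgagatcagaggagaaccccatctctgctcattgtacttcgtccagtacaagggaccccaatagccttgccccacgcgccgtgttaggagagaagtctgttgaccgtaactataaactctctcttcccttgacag
Acot1 (chr12:84009252-84009489, plus strand): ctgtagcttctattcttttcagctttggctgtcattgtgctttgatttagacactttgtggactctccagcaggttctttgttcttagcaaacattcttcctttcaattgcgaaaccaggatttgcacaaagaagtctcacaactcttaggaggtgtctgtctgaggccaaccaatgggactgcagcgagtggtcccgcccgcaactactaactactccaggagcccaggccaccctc
Acot2 (chr12:83987611-83987860, plus strand): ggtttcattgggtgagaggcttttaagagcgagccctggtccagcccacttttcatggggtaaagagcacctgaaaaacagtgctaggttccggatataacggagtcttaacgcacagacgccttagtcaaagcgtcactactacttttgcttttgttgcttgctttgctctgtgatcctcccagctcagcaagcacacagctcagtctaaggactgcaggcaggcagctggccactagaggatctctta
Ucp3 (chr7:100472741-100472989, plus strand): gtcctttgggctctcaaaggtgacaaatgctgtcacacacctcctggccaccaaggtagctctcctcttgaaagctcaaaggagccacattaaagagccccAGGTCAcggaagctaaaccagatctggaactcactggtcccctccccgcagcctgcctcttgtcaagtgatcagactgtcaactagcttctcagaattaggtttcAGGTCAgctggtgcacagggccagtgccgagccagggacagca
Hadhb (chr5:30155163-30155247, plus strand): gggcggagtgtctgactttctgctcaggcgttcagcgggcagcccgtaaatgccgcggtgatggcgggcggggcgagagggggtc

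Among these stretches, Ucp3 held 2 half-sites and Cd36 held 1. Over the whole 250 bases, AGGTCA on either strand was found in 7 of the 28 members (Acadm, Acadvl, Cd36, Cpt1a, Echs1, Plin5 and Ucp3), against 14% of the 32851 windows in the table. A looser direct repeat of this half-site spaced by 1 base (AGGNCA, any base, AGGNCA, with N any base), the form to which PPAR receptors bind, was in 0 of 28 members and 0.338% of all windows. The E-box CACGTG was in 2 of 28 members (Lipe and Slc27a1) against 6.02% of windows, and the GC box GGGCGG in 18 of 28 against 32.7%. These are matches of letters in a short window, and they say nothing of whether a factor binds there or further away. A member counted if any of its windows matched, whereas each of the 32851 windows counted singly. Members with more than 1 window, such as Slc27a1, therefore had more chances of a match, and the shares are not like for like. Hadha and Hadhb, the alpha and beta subunits of the mitochondrial trifunctional protein, start on opposite strands of chromosome 5 and share the short GC-rich stretch printed above.

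Expression per kilobase of the longest transcript differed widely between the members. In WT no pump hearts Fabp3, the cytosolic fatty acid binding protein of muscle, was the most abundant at 2464 CPM per kilobase. Lpl, the lipase that frees fatty acids from circulating triglyceride, followed at 866 and Cd36, the main fatty acid transporter of the cardiomyocyte membrane, at 654. The dehydrogenases Acadm, Acadvl and Acadl, the thiolase Acaa2, Etfa and both trifunctional subunits formed the next tier, between 320 and 455 CPM per kilobase. The carnitine palmitoyltransferases were lower, with Cpt2 at 71.8, the muscle form Cpt1b at 33.1 and the liver form Cpt1a at 19.2. Acot1, a cytosolic thioesterase that frees fatty acids from coenzyme A, was the least abundant at 5.62 CPM per kilobase. Some members share sequence with another annotated gene: 93% of the 50-base stretches of Cpt1b also occur in Gm44502, 67.3% of those of Etfb in Gm45233, 29.2% of those of Fabp3 in Fabp3-ps1, and 24.5% of those of Acot2 in Acot1. How reads of shared stretches were counted is not given, so the levels of these members could be too low or too high. The place of Cpt1b beside Cpt1a is uncertain for this reason.

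**Figure D1:**
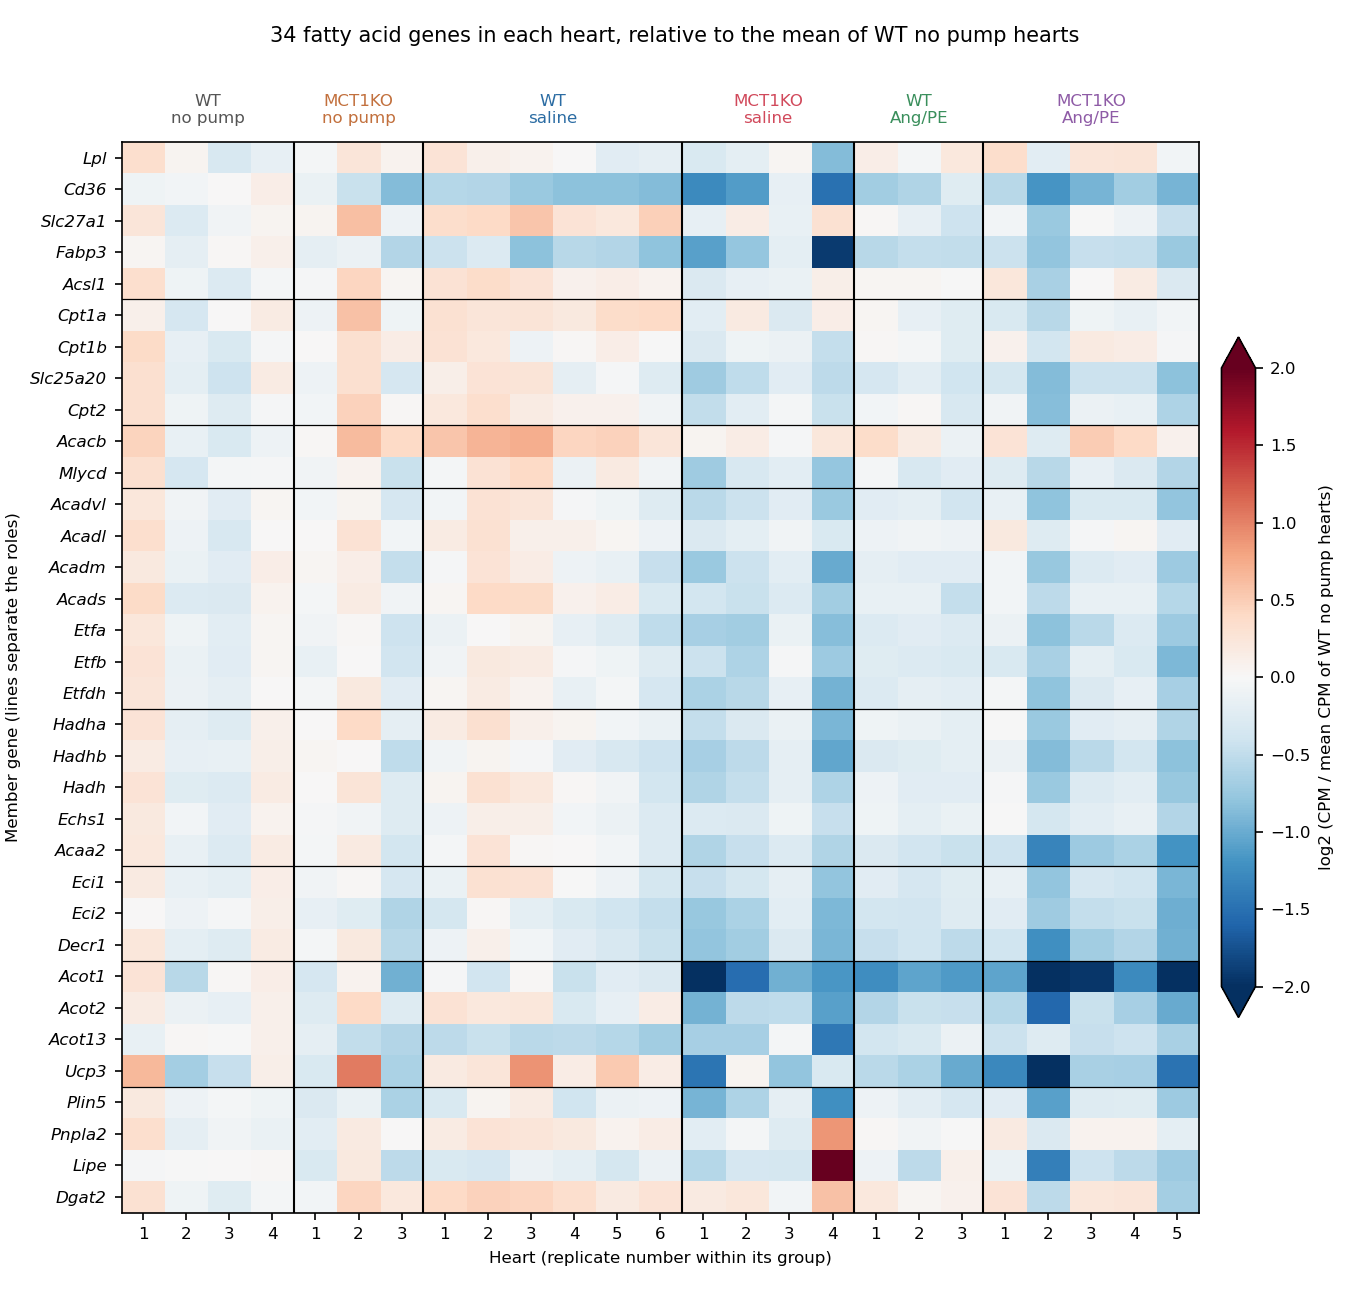
Level of each of the 34 members (rows, grouped by role with lines between roles) in each of the 25 hearts (columns, grouped by genotype and treatment), as log2 of CPM over the mean CPM of the WT no pump hearts; blue is lower and red is higher, and the scale ends at -2 and 2. Whole columns shift together, with MCT1KO saline 1 and 4 and MCT1KO Ang/PE 2 and 5 the bluest, and the deepest blue lies in the Acot1, Ucp3 and Fabp3 rows.

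The members moved together from heart to heart within a group, as shown in the heat map of the members. In WT no pump hearts, replicate 1 was the highest of its group for 28 of 34 members, and in MCT1KO no pump hearts replicate 2 was the highest for 29 and replicate 3 the lowest for 26. MCT1KO Ang/PE 2 was the lowest of its group for 25 members and replicate 1 the highest for 25. Averaged over the members as a log2 ratio to the WT no pump mean, the WT saline hearts lay between -0.18 and 0.17 and the MCT1KO saline hearts between -0.61 and -0.20. The WT Ang/PE hearts lay between -0.27 and -0.19 and the MCT1KO Ang/PE hearts between -0.87 and -0.16. The saline genotypes did not overlap on this average, whereas the Ang/PE genotypes did. The nearest saline hearts were WT saline 6 at -0.18 and MCT1KO saline 3 at -0.20. WT saline 6 was the 1 WT saline heart with high Xist. In WT no pump hearts, those with high Xist were at -0.15 and -0.17 and the others at 0.25 and 0.07. The 1 heart without high Xist was at -0.54 in MCT1KO saline (replicate 4) and -0.68 in MCT1KO Ang/PE (replicate 5), not the highest of either group. Both hearts also had the lowest cardiomyocyte markers of their group, at a mean log2 CPM of 11.76 and 12.65. The part of sex in this average was not tested. Because the members share shifts from heart to heart, the counts of members below are not counts of independent observations.

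**Figure D2:**
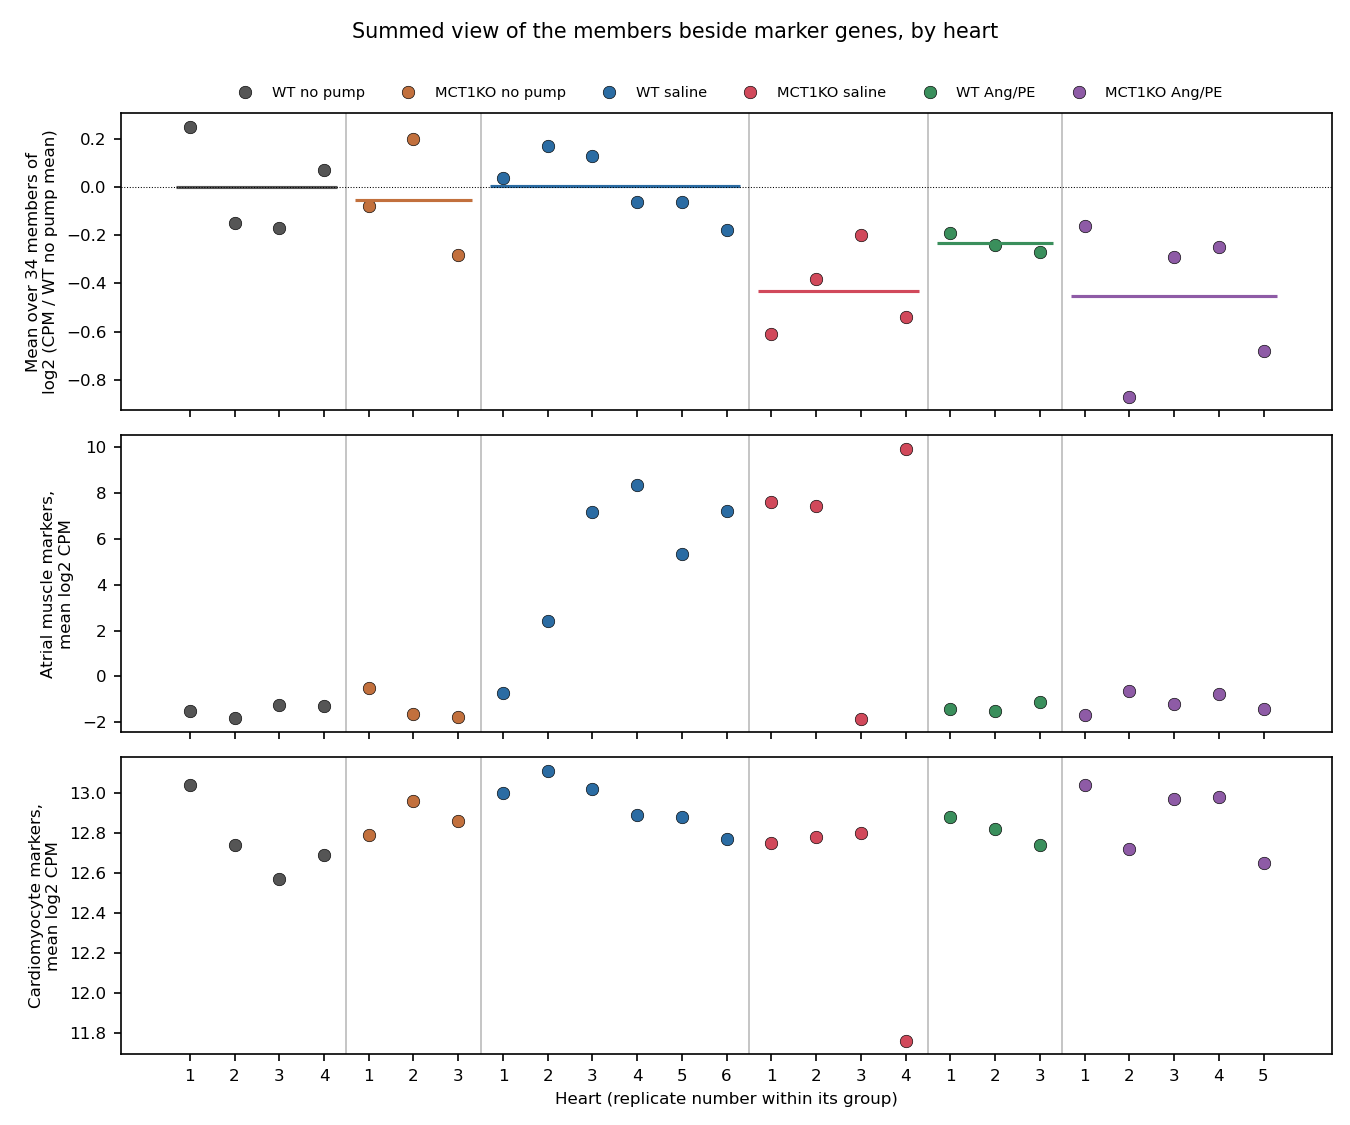
Each point is 1 heart, in the same order in the 3 panels: the mean over the 34 members of the log2 ratio to the WT no pump mean (top, with a line at each group's mean), the mean log2 CPM of 3 atrial muscle genes (middle) and the mean log2 CPM of 10 cardiomyocyte genes (bottom). The 4 MCT1KO saline hearts lie between -0.61 and -0.20 in the top panel, all below the lowest WT saline heart at -0.18, and MCT1KO saline 3, at -0.20, has an atrial level like that of the hearts without saline in the middle panel.

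The members that answer the genotype question within each treatment are given first. With no pump, the 34 members were close in the 2 genotypes. The median log2 fold change, MCT1KO against WT, was -0.04, against 0 for all tested genes, with 21 members below 0 and 13 above. No member passed an adjusted p of 0.05 in edgeR's quasi-likelihood test, and 0% of all genes did. An unadjusted p below 0.05 was reached by 1 member, lower in MCT1KO, against 12.2% of all genes in either direction. The 3 members of smallest p, none of which passed, were Acot13 (log2 fold change -0.41 ± 0.18 SE, adjusted p = 0.368), a mitochondrial thioesterase, Acacb (0.37 ± 0.18, adjusted p = 0.409) and Eci2 (-0.32 ± 0.16, adjusted p = 0.409), an isomerase for unsaturated acyl chains.

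With saline, nearly the whole pathway stood lower in the MCT1KO hearts, though no single member passed the test over all genes. The log2 fold change was below 0 for 33 of 34 members, with a median of -0.42 against 0.03 for all tested genes. No member and 0% of all genes passed an adjusted p of 0.05 with edgeR. At an unadjusted p below 0.05, 27 members were lower and 1 was higher, where 8.62% of all genes were lower. In 7 members the highest MCT1KO saline heart lay below the lowest WT saline heart, against 1.82% of all genes. These were Cpt1a, Acacb, Mlycd, Acaa2, Acot1, Acot2 and Ucp3.

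Acot2, a mitochondrial thioesterase, had the smallest p of the members in this comparison. It was measured at 48.7, 65.6, 65.9 and 44.5 CPM in the 4 MCT1KO saline hearts, and at a lowest of 76.4, a median of 106 and a highest of 115 CPM in the 6 WT saline hearts. The groups did not overlap; the log2 fold change was -0.83 ± 0.18 SE (adjusted p = 0.098, edgeR). Mlycd encodes malonyl-CoA decarboxylase, which removes the inhibitor of the carnitine step. Its levels were 60.4, 78.9, 85.5 and 57.9 CPM in MCT1KO saline hearts, and 90.7, 104 and 130 CPM as the lowest, median and highest in WT saline hearts. Here too the groups were apart, with a log2 fold change of -0.60 ± 0.14 SE (adjusted p = 0.098, edgeR). Acads, the short-chain acyl-CoA dehydrogenase, stood at 140, 133, 150 and 111 CPM against 146, 195 and 238 CPM. Only the highest MCT1KO saline heart reached into the WT range, and the log2 fold change was -0.58 ± 0.15 SE (adjusted p = 0.109, edgeR). Acot1 gave the lowest ratio, at 2.17, 5.1, 7.5 and 6.55 CPM against 10.8, 12.2 and 14.9 CPM. All 4 MCT1KO saline hearts lay below all WT saline hearts, with a log2 fold change of -1.25 ± 0.34 SE (adjusted p = 0.129, edgeR).

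By role, the difference between the saline groups took in most genes of the mitochondrial steps. All 7 dehydrogenase and electron transfer genes were lower at an unadjusted p below 0.05, from -0.58 for Acads to -0.32 for Acadl, the long-chain dehydrogenase. So were all 5 genes of the later steps, from -0.51 for Hadha to -0.23 for Echs1, the enoyl-CoA hydratase, and all 3 auxiliary enzymes (Eci1 -0.44, Eci2 -0.33, Decr1 -0.49). The 4 genes of the carnitine shuttle were lower as well, with Slc25a20, the carnitine-acylcarnitine carrier, at -0.52, Cpt2 at -0.43 and Cpt1a and Cpt1b both at -0.33. Acacb, the acetyl-CoA carboxylase that makes malonyl-CoA at mitochondria, had a log2 fold change of -0.42, so the maker and the remover of malonyl-CoA were both lower. In uptake, 2 of 5 members were lower at an unadjusted p below 0.05, Slc27a1 (-0.33), a fatty acid transport protein, and Acsl1 (-0.31), the main acyl-CoA synthetase of heart. Cd36 was at -0.18 ± 0.19 SE (-0.54 without MCT1KO saline 3 and -0.02 without MCT1KO saline 4), Fabp3 at -0.30 ± 0.20 and Lpl at -0.32 ± 0.16.

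Of the 4 storage and lipolysis genes, 1 was lower and 1 higher at an unadjusted p below 0.05. Plin5, the lipid droplet coat protein of oxidative muscle, had a log2 fold change of -0.57 ± 0.18 SE. Dgat2, which makes triglyceride, was at -0.10 ± 0.17 SE. Pnpla2, the adipose triglyceride lipase, stood at 313 ± 134 CPM (SD, n = 4) in MCT1KO saline hearts and 314 ± 14.9 CPM (SD, n = 6) in WT saline hearts. The MCT1KO saline hearts were at 238, 269, 232 and 512 CPM, the last being MCT1KO saline 4, and the WT saline hearts at 291 to 334 CPM. The equal means of Pnpla2 thus rested on that 1 heart. Lipe, the hormone-sensitive lipase of fat tissue, was the 1 member higher in MCT1KO saline hearts, with a log2 fold change of 0.88 ± 0.37 SE (adjusted p = 0.236, edgeR). It was measured at 44.3, 52, 51.7 and 266 CPM, against 51.7 to 61 CPM in WT saline hearts, so the difference lay in MCT1KO saline 4, the heart with adipocyte markers at 570 CPM. Without that heart the log2 fold change of Lipe was -0.18.

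**Figure D3:**
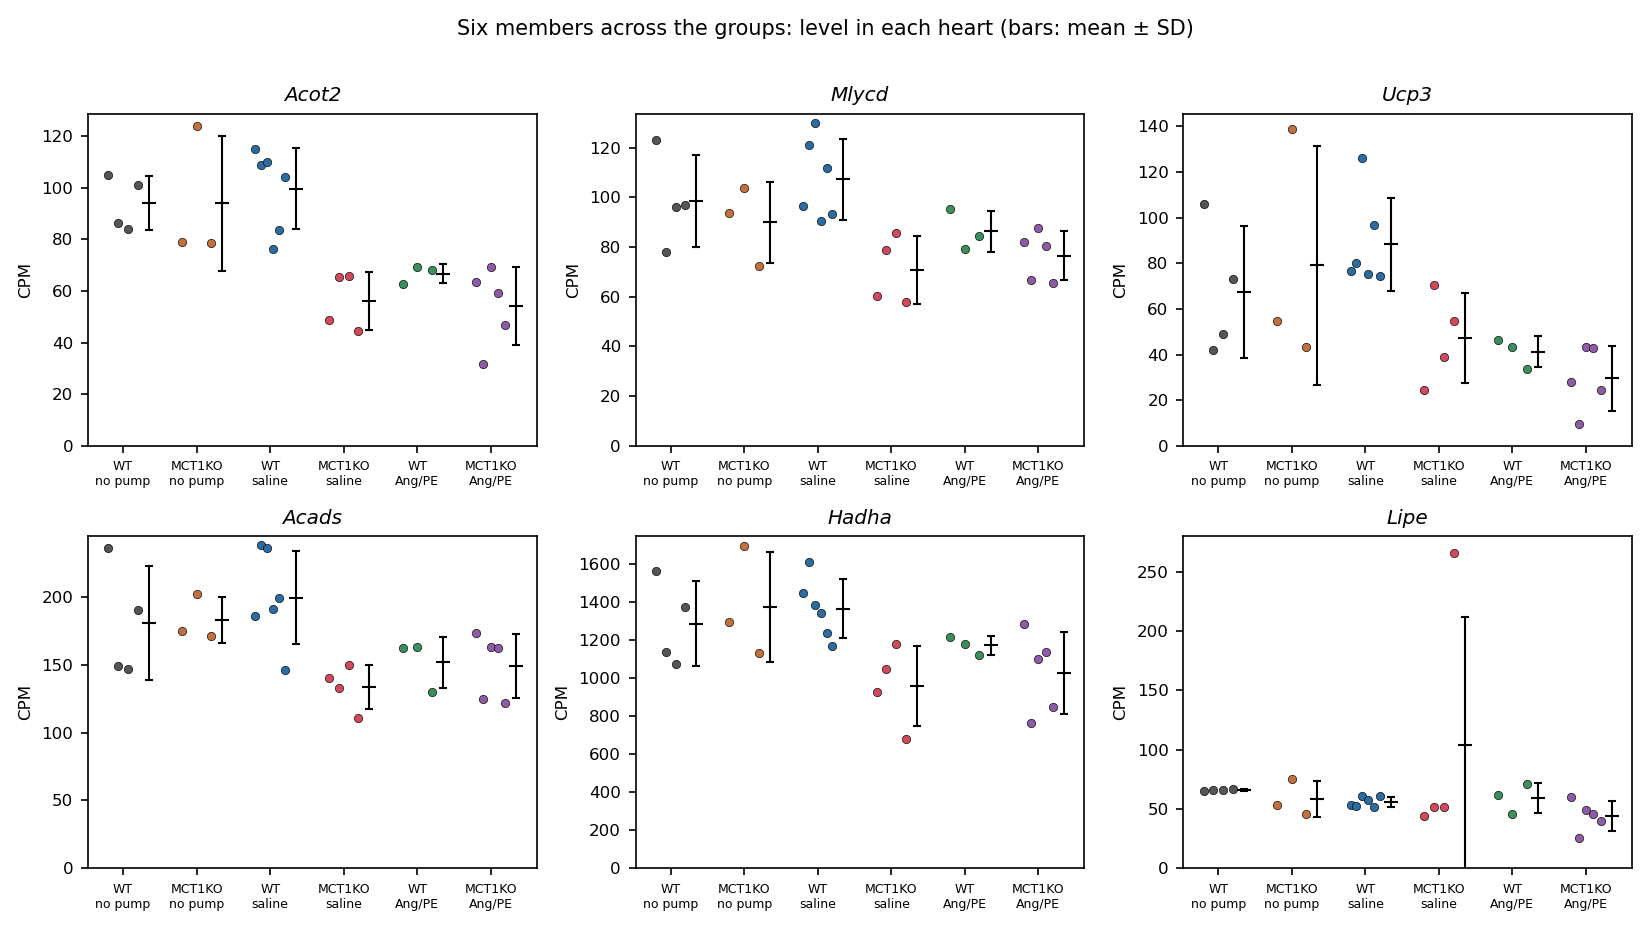
CPM of Acot2, Mlycd, Ucp3, Acads, Hadha and Lipe in each heart (points, axis from 0) by group, with the mean ± SD of the group as a bar beside the points. The MCT1KO saline points of Acot2 (44.5 to 65.9 CPM) and Mlycd (57.9 to 85.5 CPM) lie below all WT saline points, and the mean of Lipe in MCT1KO saline hearts rests on 1 heart at 266 CPM.

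Other tissue, Xist and single hearts moved with this result. The 10 cardiomyocyte markers were also all below 0, with a median log2 fold change of -0.33, and the 5 tested adipocyte markers were above 0 with a median of 4.70. With adipose and atrial scores as covariates the count of members lower at an unadjusted p below 0.05 went from 27 to 4 and the median log2 fold change from -0.42 to -0.32. With Xist as a covariate the count was 19 and the median -0.41. Over the 10 fits that each left out 1 heart, the median ranged from -0.55 to -0.37 and the count from 21 to 28. Between the saline hearts with little atrial or adipose RNA, the members' average log2 ratio to WT no pump was 0.04 in WT saline 1 and -0.20 in MCT1KO saline 3. That is 1 heart per genotype, and the pair also differed in Xist, at a log2 CPM of -1.52 and 9.36. WT saline 6, the 1 WT saline heart with high Xist, was at -0.18 on this average, and it also carried atrial RNA. The part of either in its value was not tested. Mitochondrially encoded genes took 17.3% of the counts in MCT1KO saline 3, against 9.03% to 10% in the other MCT1KO saline hearts and 8.94% to 14.8% in WT saline hearts; the part of this share in the result was not tested. MCT1KO saline 3 was the highest MCT1KO saline heart for 25 of 34 members, and without it 6 members passed an adjusted p of 0.05 (Acot2, Etfa, Etfb, Etfdh, Mlycd and Plin5, each lower). Beyond these fits, the part of other tissue and of sex in the difference was not tested. DESeq2 passed 5 members (Acads, Acadvl, Acot1, Acot2 and Mlycd), with a log2 fold change of -0.83 and adjusted p = 0.00788 for Acot2. In all, 141 of 17682 genes passed with DESeq2 in this comparison.

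With Ang/PE the genotypes were closer. The median log2 fold change was -0.18, with 30 members below 0 and 4 above. No member and 0% of all genes passed an adjusted p of 0.05 with edgeR. Before adjustment 1 member was below a p of 0.05, lower in MCT1KO, against 6.92% of all genes in either direction. The 3 of smallest p were Acaa2 (log2 fold change -0.45 ± 0.17 SE, adjusted p = 0.692), the thiolase of the last step of beta-oxidation, Acot1 (-0.71 ± 0.39, adjusted p = 0.741) and Decr1 (-0.29 ± 0.18, adjusted p = 0.755), the dienoyl-CoA reductase. The MCT1KO Ang/PE group was the most spread of the 6 on the members' average, with replicates 2 and 5 at -0.87 and -0.68 and the other three between -0.29 and -0.16. Fibroblast markers were highest in those same hearts of the group, at a mean log2 CPM of 8.04 and 7.85 against 7.17 to 7.28, and cardiomyocyte markers lowest, at 12.72 and 12.65 against 12.97 to 13.04. The part of cell makeup in the members' levels was not tested.

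**Figure D4:**
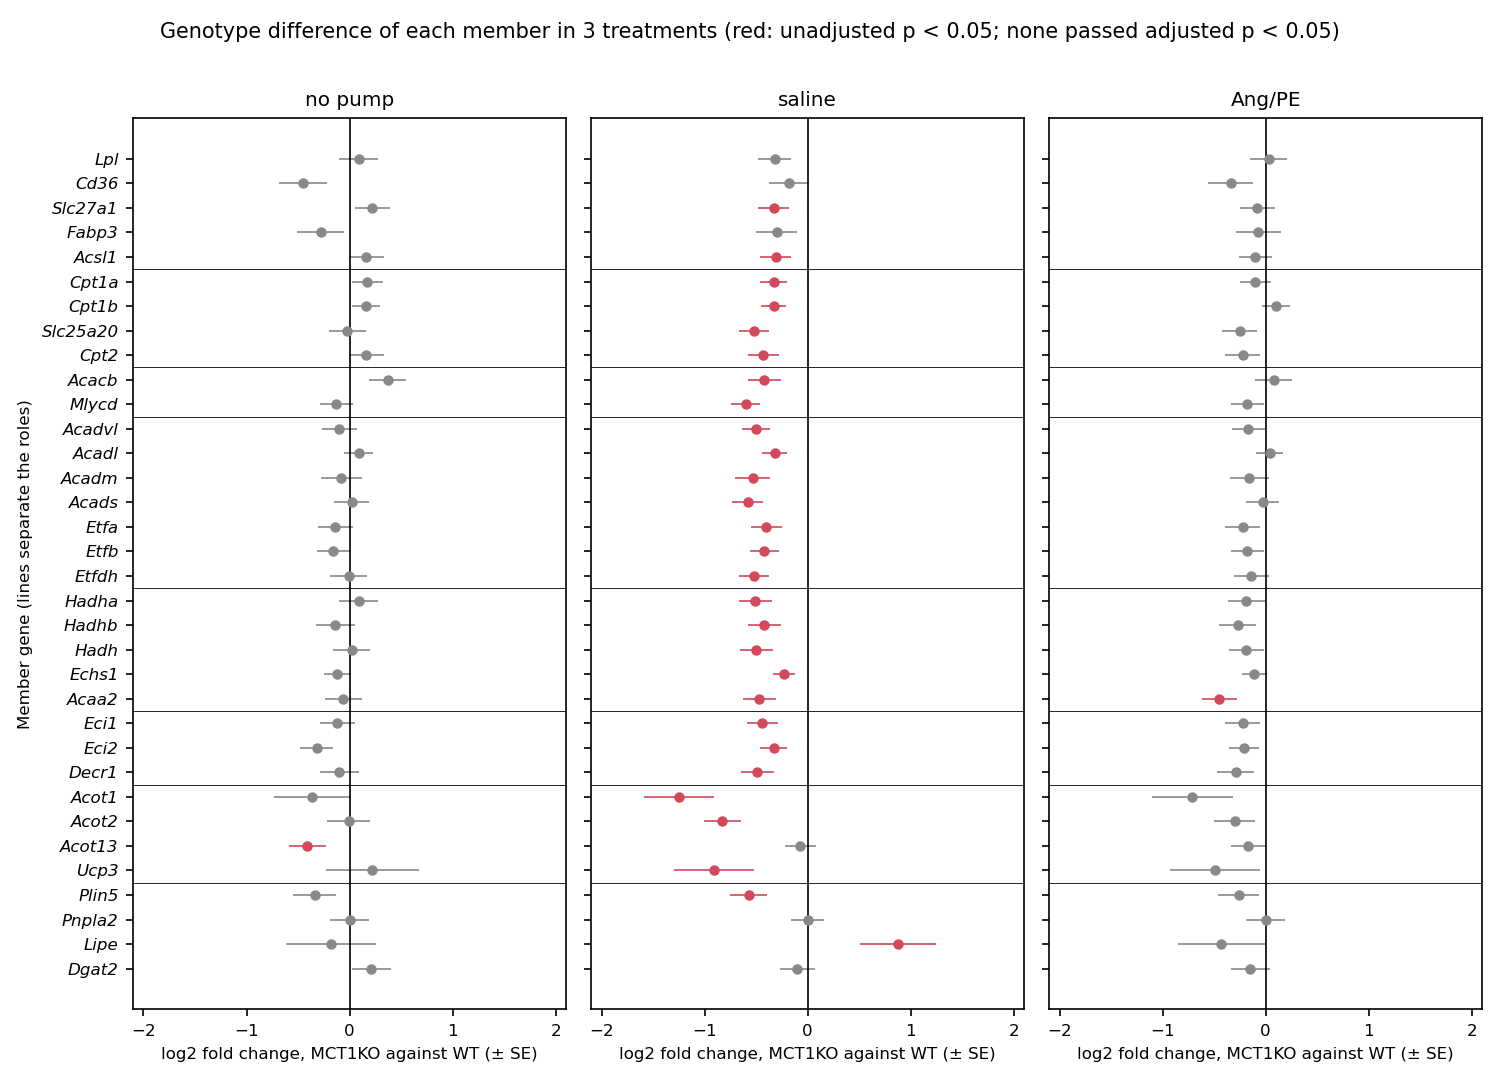
log2 fold change of each member, MCT1KO against WT (points, with SE as bars), in no pump, saline and Ang/PE hearts; members are grouped by role and red marks an unadjusted p below 0.05. With saline 27 members are red and left of 0 and Lipe is red and right of it, whereas 1 member is red with no pump (Acot13) and 1 with Ang/PE (Acaa2).

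Ang/PE against saline was compared within each genotype. In WT hearts the members lay lower with Ang/PE, with 29 of 34 below 0 and a median log2 fold change of -0.22 against -0.01 for all genes. None passed an adjusted p of 0.05 with edgeR, where 0.017% of all genes did. Before adjustment 9 members were lower and 0 higher at a p below 0.05, and 9.58% of all genes were lower. Slc27a1 (-0.55 ± 0.17 SE, adjusted p = 0.0911), Cpt1a (-0.42 ± 0.14, adjusted p = 0.129) and Acot2 (-0.58 ± 0.20, adjusted p = 0.131) had the smallest p. Acot2 stood at 62.6, 69.3 and 68.2 CPM in the 3 WT Ang/PE hearts, all below the lowest WT saline heart at 76.4 CPM. The count of 9 was 2 with Xist as a covariate, 5 without WT saline 2 and 3 without WT Ang/PE 3, and 16 with only these 2 groups in the fit. In that last fit 6 members passed (Acot1, Acot2, Cpt1a, Slc27a1 and Ucp3 lower and Acot13 higher), beside 945 of 16621 genes. DESeq2 passed Slc27a1 alone among the members, beside 641 of 17682 genes.

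In MCT1KO hearts, Ang/PE against saline, the median over the members was 0.04, with 20 members above 0 and 14 below, and it was -0.24 with adipose and atrial scores as covariates. No member passed an adjusted p of 0.05 with edgeR, although 4.46% of all genes did. At an unadjusted p below 0.05, 2 members were lower and 1 higher, against 20.4% of all genes in either direction. Lipe (-1.23 ± 0.39 SE, adjusted p = 0.0743), Lpl (0.43 ± 0.17, adjusted p = 0.143) and Acaa2 (-0.34 ± 0.16, adjusted p = 0.231) had the smallest p. Lipe again rested on MCT1KO saline 4 at 266 CPM: without that heart its log2 fold change was -0.16. Lipe passed without MCT1KO saline 1, 2 or 3, and without replicate 3 Acot13 and Fabp3 passed as well, for 3 members in all, with adjusted p-values of 0.0251 for Lipe, 0.0444 for Acot13 and 0.0434 for Fabp3. The difference between the genotypes in this step, the interaction, had a median of 0.25 with 30 members above 0. No member and 0% of all genes passed an adjusted p of 0.05 with edgeR. At an unadjusted p below 0.05, 3 members were higher and 1 lower, against 13.5% of all genes in either direction. The 3 of smallest p were Acads (0.55 ± 0.22 SE, adjusted p = 0.316), Cpt1b (0.44 ± 0.19, adjusted p = 0.333) and Lipe (-1.31 ± 0.56, adjusted p = 0.335), which was at -0.25 without MCT1KO saline 4. The saline hearts are shared by these comparisons and by the genotype comparison with saline.

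The step from no pump to saline in WT hearts gave 3 of the 4 member changes that passed the test. Cd36 and Acot13 fell and Acacb rose, which is 3 of 34 members, a share near the 6.61% of all genes that passed. The median over the members was 0.03, and at an unadjusted p below 0.05 there were 3 lower and 4 higher members, against 24.3% of all genes in either direction. Cd36 was measured at 2087, 2142, 2234 and 2425 CPM in the 4 WT no pump hearts and at a lowest of 1218, a median of 1295 and a highest of 1499 CPM in the 6 WT saline hearts. All saline hearts lay below all no pump hearts. The fitted log2 fold change between the groups was -0.73 ± 0.19 SE, a fold of 0.603 (adjusted p = 0.0263, edgeR). Acot13 stood at 136, 153, 150 and 162 CPM in no pump hearts and at 92.6, 104 and 110 CPM as the lowest, median and highest in saline hearts. Its groups were apart too, with a log2 fold change of -0.55 ± 0.15 SE (adjusted p = 0.0323, edgeR). Acacb was measured at 790, 528, 472 and 542 CPM in no pump hearts and at 693, 829 and 962 CPM in saline hearts. The no pump range reached into the saline range through replicate 1 alone, and the log2 fold change was 0.53 ± 0.16 SE (adjusted p = 0.0454, edgeR).

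These 3 calls were close to the threshold. None was made with the replicate block, without the low-count filter, with GC and length offsets, or with Xist, clock or tissue scores as covariates. Fewer genes of any kind passed in those settings. Of 17682 genes, 1168 passed in the main fit, 527 with the block, 549 with Xist and 111 with the clock score. With the offsets 107 passed, with tissue scores 0, and without the filter 509 of 37223. Nor was any of the 3 calls made without WT no pump 2, 3 or 4 or WT saline 3, 4 or 5. With only the groups compared 8 members passed, beside 2287 of 16523 genes. RLE normalization kept all 3 calls, beside 1113 of 17682 genes. DESeq2 kept them too, with adjusted p-values of 0.00495 for Cd36, 0.011 for Acot13 and 0.0132 for Acacb, beside 1949 of 17682 genes. DESeq2 also passed Fabp3 (log2 fold change -0.56, adjusted p = 0.0385). Atrial markers summed to 1.51 to 1.95 CPM in WT no pump hearts and 2.03 to 1136 CPM in WT saline hearts, and with the tissue scores as covariates the log2 fold change was -0.34 for Cd36, -0.36 for Acot13 and 0.52 for Acacb. With GC and length offsets these were -0.46, -0.30 and 0.26.

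**Figure D5:**
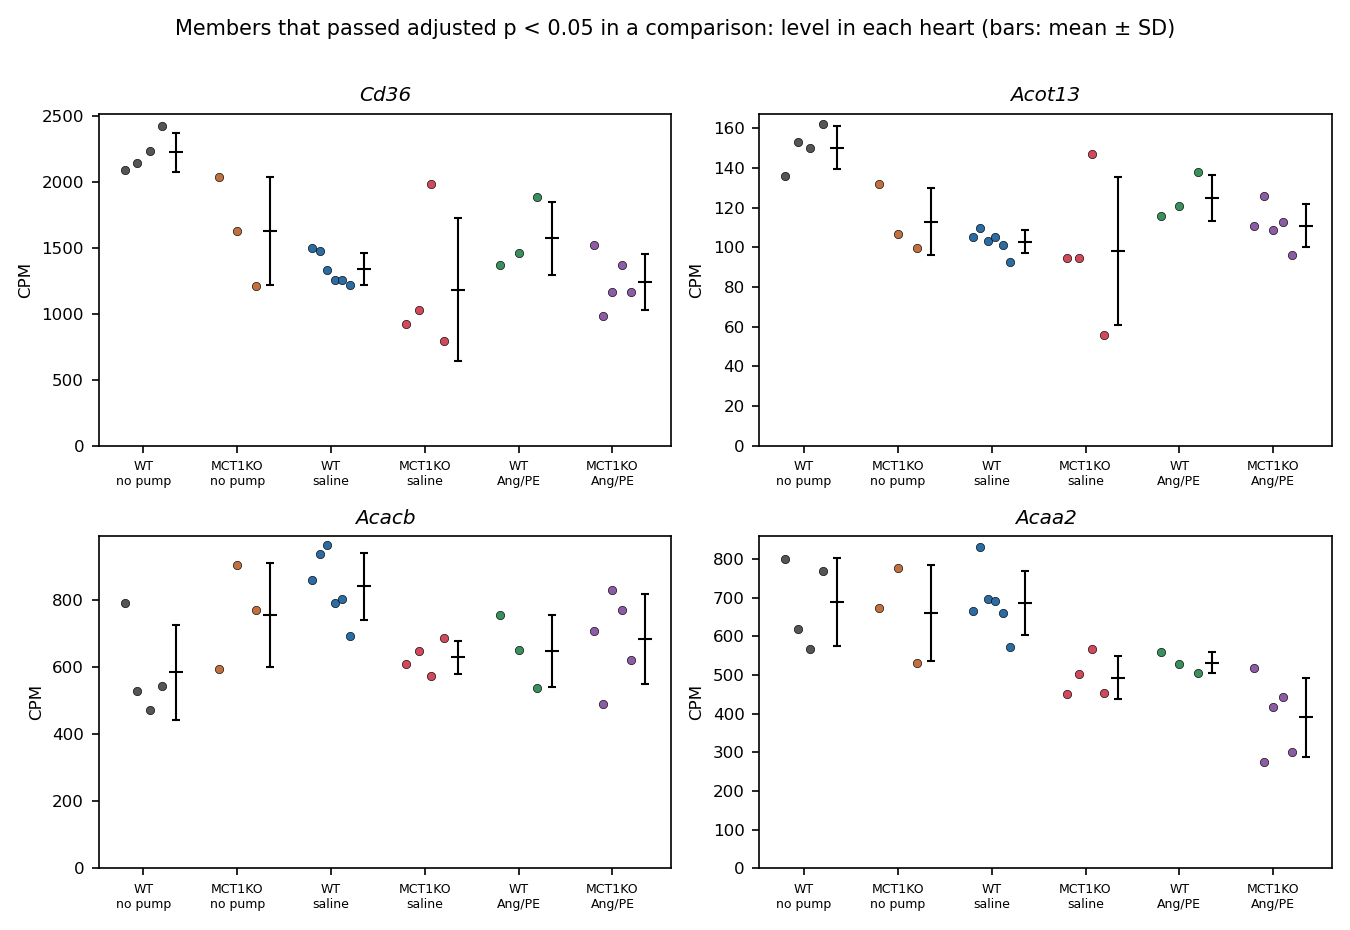
CPM of the 4 members that passed an adjusted p of 0.05 in a comparison, in each heart (points, axis from 0) by group, with the mean ± SD of the group as a bar beside the points. WT saline hearts lie below WT no pump hearts for Cd36 (1218 to 1499 against 2087 to 2425 CPM) and Acot13, and MCT1KO Ang/PE hearts lie below MCT1KO no pump hearts for Acaa2 (275 to 519 against 532 to 777 CPM).

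In MCT1KO hearts saline against no pump was lower over most of the pathway. The median was -0.39 against 0.01 for all genes, with 31 members below 0 and 3 above. None passed an adjusted p of 0.05 with edgeR, where 0.00566% of all genes did. Of the 34, 19 were lower at an unadjusted p below 0.05, against 4.68% of all genes, and 0 were higher. Cpt1b, Acadl, Acads, Acot1 and Acot2, 5 members, did not overlap between the groups, against 3.93% of all genes that were lower without overlap. The nearest hearts were at 7.5 and 7.51 CPM for Acot1 and at 703 and 706 CPM for Acadl, so these gaps were very small. Acot2 (-0.74 ± 0.21 SE, adjusted p = 0.166), Etfdh (-0.54 ± 0.18, adjusted p = 0.22), the enzyme that passes electrons on to ubiquinone, and Decr1 (-0.55 ± 0.19, adjusted p = 0.236) had the smallest p. With the tissue scores as covariates the count of 19 went to 0 and the median to -0.16, and with Xist as a covariate they were 7 and -0.37. Over the fits that left out 1 heart the count ran from 2 without MCT1KO no pump 2 to 25 without MCT1KO saline 3; it was 8 without MCT1KO saline 1 and 9 without MCT1KO saline 4. Without MCT1KO saline 3, 6 members passed (Acot2, Cd36, Decr1, Etfa, Etfdh and Fabp3, each lower).

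The response to saline itself differed between the genotypes by a median of -0.41 over the members, with 31 below 0 and 3 above. No member of this interaction passed an adjusted p of 0.05 with edgeR, and 0.00566% of all genes did. There were 14 members lower and 0 higher at an unadjusted p below 0.05, against 8.35% of all genes that were lower. Acacb had the smallest p (log2 fold change -0.79 ± 0.24 SE, adjusted p = 0.136): its mean went from 583 to 840 CPM in WT hearts and from 755 to 628 CPM in MCT1KO hearts. Acot2 (-0.82 ± 0.28, adjusted p = 0.152) and Acads (-0.59 ± 0.22, adjusted p = 0.187) followed. DESeq2 passed Acacb (adjusted p = 0.0457), beside 371 of 17682 genes. Without WT no pump 1, Acacb and Cpt1b, 2 members, passed with edgeR, at adjusted p-values of 0.0281 and 0.0435. The count of 14 was 1 with Xist, 5 with tissue scores and 9 with the clock score as covariates. It ran from 2 without MCT1KO no pump 2 to 20 without MCT1KO no pump 3 when hearts were left out, and was 5 and 7 without WT no pump 2 and 3, 9, 8 and 9 without WT saline 1, 2 and 3, and 7 and 8 without MCT1KO saline 1 and 4.

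Ang/PE against no pump is the step in which neither group carried the atrial and adipose RNA of the saline hearts. In WT hearts 30 of 34 members were below 0, with a median of -0.22 against -0.01 for all genes. No member and 0% of all genes passed an adjusted p of 0.05 with edgeR. At an unadjusted p below 0.05, 6 members were lower and 0 higher, against 5.11% of all genes that were lower. The smallest p belonged to Acot1 (-1.14 ± 0.39 SE, adjusted p = 0.454), Decr1 (-0.46 ± 0.19, adjusted p = 0.481) and Acot2 (-0.50 ± 0.21, adjusted p = 0.491). Acot1 was at 6.2, 7.06 and 6.72 CPM with Ang/PE and at 17.7, 9.94, 14.9 and 16.1 CPM with no pump, so the groups did not overlap. The count of 6 was 1 without WT no pump 4 or WT Ang/PE 1, 2 without WT no pump 1 or WT Ang/PE 3, 3 without WT Ang/PE 2, at most 7 without any other heart, and 10 with only the groups compared.

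In MCT1KO hearts 33 of 34 members were below 0, with a median of -0.34, and 1 member fell past the test where 0.503% of all genes passed. At an unadjusted p below 0.05, 15 members were lower and 0 higher, against 6.09% of all genes that were lower. The member that fell was Acaa2, at 519, 275, 417, 443 and 300 CPM with Ang/PE and 673, 777 and 532 CPM with no pump. Every Ang/PE heart lay below every no pump heart, the nearest at 519 and 532 CPM. The fitted log2 fold change between the groups was -0.76 ± 0.17 SE, a fold of 0.592 (adjusted p = 0.0402, edgeR). Acot2 (-0.80 ± 0.20 SE, adjusted p = 0.0728) and Acot1 (-1.49 ± 0.37, adjusted p = 0.073) missed the threshold. In 6 members, Slc25a20, Cpt2, Acaa2, Acot1, Acot2 and Ucp3, the groups did not overlap, against 3.96% of all genes that were lower without overlap. Some gaps were very small: the nearest hearts were at 109 and 110 CPM for Slc25a20, 163 and 164 for Cpt2, and 43.3 and 43.5 for Ucp3. Ucp3, the mitochondrial uncoupling protein of muscle, stood at 27.8, 9.36, 43.3, 42.7 and 24.4 CPM with Ang/PE and 54.6, 139 and 43.5 CPM with no pump, a log2 fold change of -1.42 ± 0.43 SE (adjusted p = 0.133, edgeR).

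The Acaa2 call was lost without MCT1KO no pump 1 or 2, or without MCT1KO Ang/PE 2 or 5. It was also lost with the replicate block (with or without GC and length offsets), with Xist or clock scores as covariates, or with only the groups compared. Of 17682 genes, 89 passed in the main fit, 81 with the block, 101 with the block and offsets, 11 with Xist and 0 with the clock score. With only the groups compared 22 of 16049 passed. The log2 fold change of Acaa2 was between -0.89 and -0.63 over the fits that left out 1 heart. With tissue scores as covariates Acot2 passed beside Acaa2, where 181 of 17682 genes did. DESeq2 passed Acaa2, Acot1, Acot2, Decr1 and Ucp3, and 403 of 17682 genes in all. All 3 MCT1KO no pump hearts lacked Xist and 4 of 5 MCT1KO Ang/PE hearts had it; with that covariate the count of 15 went to 5. It was also 5 with the clock score and 9 with the replicate block, 4 without MCT1KO no pump 2, 21 without MCT1KO no pump 3, and 9 without MCT1KO Ang/PE 2 or 5.

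For the comparisons with no called member, DESeq2 called none in the genotype comparisons with no pump and with Ang/PE, in saline against no pump and Ang/PE against saline in MCT1KO hearts, in Ang/PE against no pump in WT hearts, and in the interaction of genotype with Ang/PE against saline. Of all 17682 genes it called 87, 5, 209, 1224, 35 and 13 in these comparisons, in that order.

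Across all 6 groups, the members fixed by role gave different orders of levels. Cd36 was highest in WT no pump hearts (2222 ± 149 CPM, SD, n = 4) and lowest in MCT1KO saline hearts (1182 ± 542, n = 4), with MCT1KO no pump (1625 ± 410, n = 3), WT Ang/PE (1571 ± 278, n = 3), WT saline (1341 ± 121, n = 6) and MCT1KO Ang/PE (1240 ± 209, n = 5) between them. Lpl had group means from 2900 ± 703 CPM (MCT1KO saline, n = 4) to 3902 ± 622 CPM (MCT1KO Ang/PE, n = 5). Cpt1b, whose product sets the rate of entry into mitochondria in heart, ran from 81.3 ± 10.1 CPM in MCT1KO saline hearts to 107 ± 12 CPM in MCT1KO no pump hearts (n = 4 and 3). These ranges of Cpt1b were 68.5 to 90.1 and 96.2 to 120 CPM, so those hearts did not overlap.

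Acacb ranged from 583 ± 141 CPM in WT no pump to 840 ± 100 CPM in WT saline hearts, and the other four groups lay between 628 and 755 CPM. Mlycd was lowest in MCT1KO saline (70.7 ± 13.6 CPM, n = 4) and MCT1KO Ang/PE hearts (76.5 ± 9.84, n = 5), and highest in WT saline hearts (107 ± 16.2, n = 6). Acadvl, the very-long-chain dehydrogenase, was at 667 ± 98.4 and 678 ± 137 CPM in MCT1KO saline and Ang/PE hearts and at 944 ± 139 CPM in WT saline hearts. WT Ang/PE hearts were at 765 ± 51.5 CPM for this gene, and the no pump groups at 923 ± 120 (WT) and 859 ± 114 (MCT1KO). Hadha was lowest in MCT1KO saline hearts at 959 ± 212 CPM (n = 4) and highest in MCT1KO no pump hearts at 1373 ± 289 CPM (n = 3), next to 1364 ± 156 CPM (n = 6) in WT saline hearts.

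Acot1 and Ucp3 were lowest in MCT1KO Ang/PE hearts, at 4.15 ± 2.42 and 29.5 ± 14.1 CPM (n = 5). Acot1 was highest in WT no pump hearts at 14.7 ± 3.37 CPM (n = 4), and Ucp3 in WT saline hearts at 88.2 ± 20.1 CPM (n = 6). Both spread widely within groups, with an SD of up to 58.3% of the mean for Acot1 (MCT1KO Ang/PE) and 66.1% for Ucp3 (MCT1KO no pump). Pnpla2 had group means of 272 to 314 CPM. That of MCT1KO saline hearts, 313 CPM, rested on MCT1KO saline 4 at 512 CPM, with the rest of that group at 232 to 269 CPM. The ratio of Hadha to Hadhb, whose upstream stretch is printed above, stayed near 1: its mean log2 value was between -0.18 and 0.07 in the 6 groups. That of Acot1 to Acot2 was -2.71 ± 0.28 (SD, n = 4) in WT no pump hearts and -3.92 ± 0.68 (n = 5) in MCT1KO Ang/PE hearts, with part of their sequence shared.

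The 42 other fatty acid genes compared, which cover further transport and activation proteins, other mitochondrial enzymes, peroxisomal oxidation and other storage genes, were all tested. In the saline genotype comparison 13 were lower and 3 higher at an unadjusted p below 0.05, where 8.62% of all genes were lower. None of the 42 passed the adjusted test. Their median log2 fold change was -0.03, beside -0.42 for the 34 members. The 9 peroxisomal genes had a median of 0.04 there and the 8 other mitochondrial ones a median of -0.25. In WT hearts, saline against no pump, where 6.61% of all genes passed, 3 of the 42 fell and 0 rose. They were Crot (-0.40 ± 0.09 SE, adjusted p = 0.0173), the peroxisomal carnitine octanoyltransferase, Acot9 (-0.59 ± 0.15, adjusted p = 0.024) and Gpihbp1 (-0.84 ± 0.24, adjusted p = 0.0373), the endothelial protein that holds lipoprotein lipase at the capillary wall. Gpihbp1 went from 67.3 ± 13.5 CPM (n = 4) to 37.5 ± 4.82 CPM (n = 6). In MCT1KO hearts, Ang/PE against saline, 4.46% of all genes passed. Of the 42, Acaca, the acetyl-CoA carboxylase of fat synthesis, passed with a log2 fold change of -2.54 ± 0.60 SE (adjusted p = 0.0225, edgeR). That call rested on MCT1KO saline 4, at 633 CPM; the other three saline hearts were at 60.4, 45.9 and 25.1 CPM and the Ang/PE hearts between 29.6 and 35.2 CPM, so the groups overlapped. Without that heart Acaca was at -0.42 (adjusted p = 0.274), and with tissue scores as covariates at 0.76 (adjusted p = 0.647). Crot, Acot9 and Gpihbp1 did not pass with GC and length offsets or with tissue scores, where 107 and 0 of 17682 genes passed. Their log2 fold changes were -0.28, -0.43 and -0.82 with the offsets and -0.19, -0.31 and -0.33 with tissue scores. In the other 9 comparisons 0 of the 42 passed with edgeR, where at most 0.503% of all genes did. Per comparison 2 to 16 of the 42 had an unadjusted p below 0.05. Shares of all genes at that p stand with each comparison above, for some in the lower direction only.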

How the data were processed

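RNA from 25 mouse hearts was sequenced after ribosomal RNA depletion with a stranded library kit, per the labels' protocols. The submitters' processing notes name cutadapt 1.16, STAR 2.7.9a, featureCounts 1.6.3, DESeq2 1.42.1 and the build GRCm39 (mm39). The strand setting, the annotation and the treatment of reads that map to several genes are not given in the sources used here. The authors deposited 1 table of raw counts per gene and library, with no normalization. Each column was matched to its heart by the library identifier in the sample title, and 0 columns were unmatched.

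Symbols came from a gene name table (51948 of 56941 genes). GENCODE M21 (GRCm38) gave only names, GC content and length (found for 97.1% of tested genes), the shared stretches and the exons removed from promoters. The RefSeq promoter table is of GRCm38.p6, and coordinates of that build were not mixed with the counts.

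The counts were analysed with edgeR 4.0.16 (limma 3.58.1, R 4.3.3). The filter filterByExpr left 17682 genes, libraries were scaled by TMM, and 1 robust quasi-likelihood fit of the 6 groups (19 residual degrees of freedom, common biological coefficient of variation 0.196) gave 11 comparisons. P-values are two-sided and were adjusted by the Benjamini-Hochberg method over all tested genes within each comparison and 0.05 was the threshold for a call. Levels are CPM on TMM-scaled library sizes, and the SE of a log2 fold change was derived from its F statistic. No p was adjusted over the list and no set was tested. P-values set a difference between groups against the spread between hearts within groups, which the main fit estimated over all 6 groups together. The scripts were tested on simulated counts.

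The alternatives were RLE normalization, no low-count filter, the replicate number as a block, Xist, tissue scores or a clock score as covariates, GC and length offsets (mgcv 1.9.3) with and without the block, only the groups compared, DESeq2 1.42.0, and leaving out each heart. Tissue scores are mean log2 CPM of adipose and atrial genes with a prior count of 2. The members, gene lists and scores were chosen with earlier results of these data known. Each called member was to be named, up to 6 per comparison with values in each heart, otherwise the 3 of smallest p, plus 10 members fixed by role at their group levels and up to 3 called genes of the other list; the members named for groups that do not overlap, and those shown for Acot2, Mlycd, Acads, Acot1, Ucp3 and Lipe in each heart, were chosen after their values were seen. Protein sequences were not used here.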

Additional observations from a re-analysis of the deposited data

Results flagged for a closer look

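In a group of 4 to 6 hearts, 1 heart stood apart from the rest for 1 member. Lipe had a log2 CPM of 8.06 in MCT1KO saline 4, that is 266 CPM, against 44.3 to 52 CPM in the other MCT1KO saline hearts. The gap to the nearest heart passed Dixon's critical value at the 95% level. Of 136 such tests over the members and the groups of 4 or more hearts, chance at 1 in 20 would give 6.8, and 1 was found. The same heart had the highest sums of adipocyte (570 CPM), brown adipocyte (708 CPM) and atrial (3679 CPM) markers; their part in the Lipe value was not tested.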

How the results depend on the processing

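Numbers of members called at an adjusted p below 0.05 are given here by setting. The number of all genes called moved with the setting as well. In the saline genotype comparison 0 of 17682 genes passed in the main fit, 115 with the replicate block and 141 with DESeq2. In WT hearts, saline against no pump, 1168 passed in the main fit, 0 with tissue scores and 2287 of 16523 with only the groups compared. Counts over all genes in fits that left out 1 heart are not given here. In the saline genotype comparison (0 called), 1 was called with the replicate block, 5 with DESeq2 and 0 to 6 when each heart was left out in turn. In WT hearts, Ang/PE against saline (0), 6 were called with only the groups compared and 1 with DESeq2; in MCT1KO hearts (0), leaving out hearts gave 0 to 3. In WT hearts, saline against no pump (3), 0 were called without the low-count filter, with the replicate block, with Xist, tissue scores or the clock score as covariates, and with GC and length offsets with or without the block, 8 with only the groups compared, and 0 to 3 when a heart was left out; in MCT1KO hearts (0), leaving out hearts gave 0 to 6. For Ang/PE against no pump in MCT1KO hearts (1), 0 were called with the replicate block, the Xist or clock covariate, the offsets with the block or only the groups compared, 2 with tissue scores, 5 with DESeq2 and 0 to 2 without 1 heart. For the interaction of genotype with saline (0), DESeq2 called 1 and leaving out hearts gave 0 to 2. Lipe reversed its sign with tissue scores: its log2 fold change was -0.48 between saline genotypes, 0.18 for Ang/PE against saline in MCT1KO hearts and 0.14 for the interaction with Ang/PE. Between saline genotypes it ranged from -0.18 without MCT1KO saline 4 to 1.14 as hearts were left out in turn. The cause was not tested. In fits of only the groups compared, or of fewer hearts, fewer hearts set the dispersion. RLE normalization moved no count of called members by more than 1.5 times. The replicate numbers did not pair the hearts: no comparison had all its same-numbered pairs correlated above 0.1, and the mean correlation per comparison was between -0.157 and 0.101. The library totals of 12216704 to 24880683 counts leave the least abundant member, Acot1, at 1.12 to 17.7 CPM.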
